A study of Mus musculus with 6 samples.

Results

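RNA levels were compared here for 10 genes that encode receptors, bridging ligands and an adaptor of phagocytosis, the engulfment of synapses, debris and dying cells. The cells were sorted from olfactory bulbs with and without Sox9 in astrocytes, and engulfment itself was not measured. The 10 genes were taken by their symbols: the receptor tyrosine kinases Mertk and Tyro3, their ligands Gas6 and Pros1, the receptor Megf10 and the adaptor Gulp1, the scavenger and endocytic receptors Cd36, Msr1 and Lrp1, and the phosphatidylserine receptor Timd4. They are 10 of the 24421 genes listed in every library, and all 10 passed the filter on low values that left 18413 genes for testing.

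RNA-seq was performed on 3 control and 3 Sox9 KO samples, with 1 library per adult male mouse. All 6 mice received AAV-GFAP-iCre-P2a-TurboRFP in the olfactory bulb, a virus whose GFAP promoter drives both Cre recombinase and a red fluorescent protein. Mice with the genotype Sox9fl/fl lose Sox9 where Cre acts, and C57BL/6J mice (WT) with the same virus served as controls. TurboRFP-positive cells were sorted from dissociated bulbs 4 weeks after the injection, so the gate follows the viral promoter and no surface marker of astrocytes or microglia was used to select or remove cells.

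Phagocytes recognise phosphatidylserine on the surface of a dying cell or synapse either directly or through soluble bridging proteins. Mertk, Tyro3 and Axl form the TAM family of receptor tyrosine kinases. They all bind phosphatidylserine through Gas6, and Mertk and Tyro3 also through protein S, the product of Pros1. Megf10 is an engulfment receptor of astrocytes related to Ced-1 of the worm, and Gulp1 is the adaptor related to Ced-6 that acts with such receptors and with Lrp1. Astrocytes are known to engulf synapses through Megf10 and Mertk, while microglia and macrophages carry Mertk, Axl and several scavenger receptors.

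The values are counts normalized by the authors with 1 size factor per library, and they rest on 18242129 to 86906527 reads on genes, so that 1 read was worth 0.395 to 1.58 normalized counts. Sox9 itself fell from a mean of 5556 in the controls to 58.2 in the KO libraries, a log2 change of -6.54 ± 0.15 (SE). The sorted cells were not of 1 type. Microglia markers were present in the controls, where the 11 genes summed to 164387 to 194361, and their sum rose to between 538817 and 642937 in the KO libraries. Of these 11 markers, 10 rose, Csf1r and Itgam among them, and Fcrls did not pass the test. Astrocyte markers summed to 453190 to 503934 in the controls and to 31861 to 40648 in the KO libraries, and all 10 of them fell, including Slc1a2, Slc1a3 and Aqp4. No marker on either list was at 0 in all libraries of a group. In bulk samples, fewer cells of a type and less RNA per cell cannot be told apart, and this holds for every gene described here. The part that these shifts have in the changes of single genes was not tested beyond the ratios to both marker lists given further on.

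The sequence just upstream of a RefSeq start of transcription was compared for genes that rose and genes that fell. RefSeq promoters on GRCm38.p6 were found for 8 of the 10 genes, without Megf10 and Msr1, and the 250 bases before the start were searched on both strands for 2 words bound by SOX proteins, ACAATG and ACAAAG, and for GAGGAA, the core word bound by the myeloid factor PU.1, which overlaps neither. The SOX words were present in 25.2% of 32851 such promoters, and GAGGAA in 23.3%. Among the 8 genes, Pros1 had 1 SOX word, 183 bases before its start, and Cd36 had 3, whereas the other 6 had none and no promoter of the 8 held GAGGAA. A match is only a description of the letters in this window. By the gene bounds of GENCODE, the Tyro3 and Cd36 windows lie within the gene, and the Gulp1 window runs past the start of the gene. For these genes the window is thus not the sequence before the GENCODE start. The promoters of 2 genes that rose, Mertk (chr2:128698665-128698914, plus strand) and Pros1 (chr16:62854057-62854306, plus strand), and of 2 genes that fell, Tyro3 (chr2:119799264-119799513, plus strand) and Gulp1 (chr1:44551421-44551670, plus strand), are printed 5′ to 3′ as examples of each direction, with the SOX word in capitals.
Mertk: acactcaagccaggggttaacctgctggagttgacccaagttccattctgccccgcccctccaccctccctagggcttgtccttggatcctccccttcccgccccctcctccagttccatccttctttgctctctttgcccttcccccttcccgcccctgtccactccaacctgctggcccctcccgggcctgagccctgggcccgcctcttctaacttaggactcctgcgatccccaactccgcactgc
Pros1: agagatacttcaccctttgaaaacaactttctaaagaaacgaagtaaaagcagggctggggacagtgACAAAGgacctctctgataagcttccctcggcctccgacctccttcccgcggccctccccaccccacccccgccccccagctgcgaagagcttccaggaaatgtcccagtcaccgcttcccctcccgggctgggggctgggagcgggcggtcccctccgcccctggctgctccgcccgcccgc
Tyro3: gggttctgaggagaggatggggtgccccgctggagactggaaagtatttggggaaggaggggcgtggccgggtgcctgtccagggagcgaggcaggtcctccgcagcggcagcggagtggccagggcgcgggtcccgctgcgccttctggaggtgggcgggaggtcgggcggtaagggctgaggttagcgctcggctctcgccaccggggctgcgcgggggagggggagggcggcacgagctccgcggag
Gulp1: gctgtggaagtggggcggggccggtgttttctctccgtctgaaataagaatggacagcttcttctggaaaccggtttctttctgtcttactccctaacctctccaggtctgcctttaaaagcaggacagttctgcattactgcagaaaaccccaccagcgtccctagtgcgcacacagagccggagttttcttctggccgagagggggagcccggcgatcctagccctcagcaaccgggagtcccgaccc
The Tyro3 window was the richest of the 4 in G and C, at 73.2%, with 24 CpG dinucleotides. The values were 64.4% and 15 for Pros1, 63.6% and 7 for Mertk, and 56.8% and 12 for Gulp1. Over all promoters the median G and C content was 52.4%, and the median count of CpG dinucleotides was 6 (quartiles 2 and 16).

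Comparison of the Sox9 KO with the control libraries asked which engulfment genes differed in the sorted cells. Of the 10 genes, Mertk, Pros1 and Msr1 were called higher in the KO libraries, Megf10, Tyro3 and Gulp1 were called lower, and Gas6, Cd36, Lrp1 and Timd4 were not called. A gene was called when its Benjamini-Hochberg adjusted p from limma, over all genes tested, was under 0.05 and its change was at least 1.5-fold. By the same rule 51.0% of all genes tested were called, 22.2% higher and 28.8% lower, so 6 calls among 10 genes is a share near that of the whole table. The groups did not overlap for 8 of the 10 genes, 5 higher and 3 lower in the KO libraries, against 67.2% of all genes tested. The median log2 change was 0.25 over the 10 genes and -0.066 over all genes tested. Of all genes called, 56.4% were lower in the KO libraries, and this share was 67.8% after scaling to equal totals, 71.5% after scaling to equal totals without the ribosomal RNA gene Rn45s, and 43.2% after quantile normalization.

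**Figure D1:**
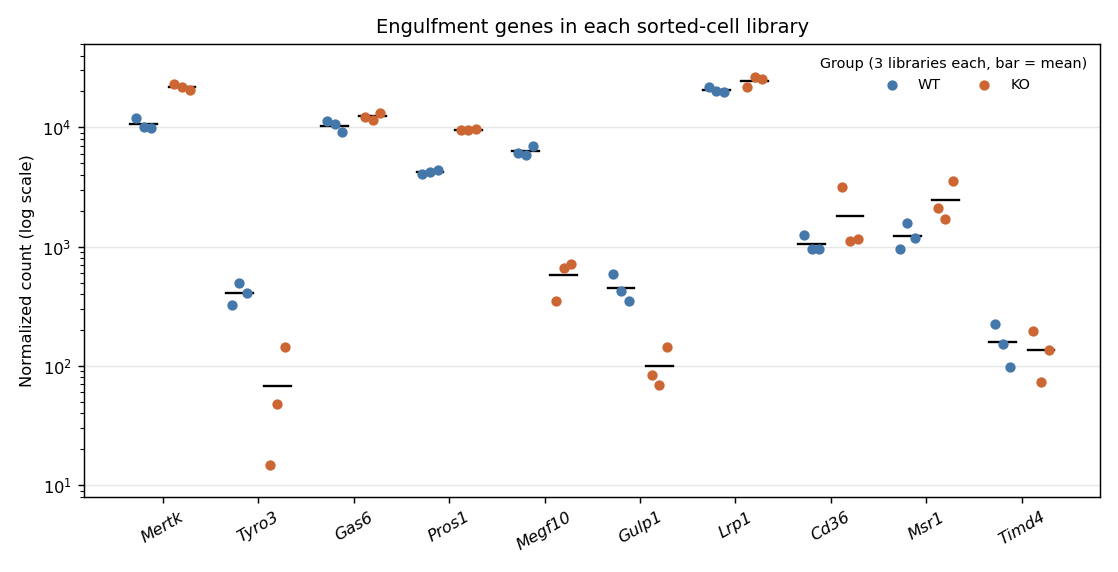
Normalized counts of the 10 engulfment genes in each library, on a log axis, with control (WT) and Sox9 KO libraries as points and the group means as bars. Megf10 fell from 5897 to 6951 in the controls to 353 to 712 in the KO libraries, while every KO library lay above every control for Mertk and Pros1, and the groups overlapped for Cd36 and Timd4.

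The TAM receptors moved in opposite directions. Mertk (chr2:128698956-128802894, plus strand) was at 11998, 10056 and 9869 normalized counts in control libraries 1, 2 and 3, and at 22971, 21717 and 20708 in KO libraries 1, 2 and 3. Every KO library was above every control, and neither group was widely spread. The mean rose from 10641 ± 1179 to 21799 ± 1134 (SD, n = 3 per group), a log2 change of 1.04 ± 0.10 (SE, adjusted p = 8.47e-06, limma), with a 95% confidence interval of 0.81 to 1.26. After quantile normalization the log2 change of Mertk was 0.43, which is under 1.5-fold.

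Tyro3 (chr2:119797733-119818104, plus strand), the TAM receptor best known from neurons, was far less abundant. It was at 323, 492 and 405 in the controls, and at 14.9, 47.8 and 143 in the KO libraries, which rest on 15, 121 and 94 reads. All KO values were below the lowest control, and relative to their mean they spread more widely than the controls did. The mean fell from 407 ± 84.6 to 68.5 ± 66.4 (SD, n = 3 per group). The log2 change was -3.06 ± 0.62 (SE, adjusted p = 0.00154), and its interval of -4.44 to -1.68 was the widest of the 10 genes. Markers of neurons fell as well, with 6 of 7 called lower and a sum of 12605 to 16799 in the controls against 2052 to 3688 in the KO libraries, and their part in the change of Tyro3 was not tested.

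Axl, the remaining member of the TAM family and not one of the 10 genes, stood beside Mertk. Its values of 9084, 9756 and 10025 in the controls against 26488, 21595 and 24685 in the KO libraries did not overlap, and the log2 change was 1.33 ± 0.10 (SE, adjusted p = 1.25e-06). Per kilobase of exon, Mertk made up 55.3% ± 3.98 of the 3 TAM receptors in the controls and 51.1% ± 2.43 in the KO libraries (SD, n = 3 per group), and the groups overlapped (exact two-sided permutation p = 0.3). The share of Axl went from 43.2% ± 3.69 to 48.8% ± 2.38. For Tyro3 it was 1.49% ± 0.35 and 0.114% ± 0.111. The groups did not overlap for either of these shares, which gives the smallest p that 3 against 3 libraries allow (exact two-sided permutation p = 0.1). These shares were computed after the values of the genes had been seen. Within a library, and without correction for length, Mertk was 20.4 to 37.1 times as high as Tyro3 in the controls and 145 to 1543 times in the KO libraries, a difference of 4.10 in the mean log2 ratio.

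The TAM ligands differed in their response. Pros1 (chr16:62854307-62929346, plus strand) encodes protein S, an anticoagulant of plasma that also bridges phosphatidylserine to Tyro3 and Mertk. Its values were 4039, 4252 and 4350.4 in the controls against 9423, 9486 and 9694 in the KO libraries. The libraries of each group lay close together, and the groups lay far apart. The mean rose from 4214 ± 159 to 9534 ± 142 (SD, n = 3 per group), a log2 change of 1.18 ± 0.08 (SE, adjusted p = 5.70e-07) with an interval of 1.00 to 1.36.

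Gas6 (chr8:13465374-13494490, minus strand), the ligand that binds all TAM receptors, was at 11343, 10580.2 and 9129 in the controls and at 12307, 11637 and 13174 in the KO libraries. The groups did not overlap, but the lowest KO library was close to the highest control. The log2 change was 0.26 ± 0.10 (SE, adjusted p = 0.0473), with an interval of 0.03 to 0.49, and it was not called because it was under 1.5-fold; its direction turned to -0.066 after scaling to equal totals without Rn45s and to -0.25 after quantile normalization. Its exons share 34 bases with those of Tmem255b on the opposite strand, and the sources used here do not say whether counting used strand. No other gene of the 10 shared exon bases with another gene. The make-up of the RNA for both ligands thus changed in the sorted cells. Per kilobase, Pros1 made up 20.4% ± 2.39 of this RNA in the controls and 32.5% ± 1.13 in the KO libraries (SD, n = 3 per group). The groups did not overlap (exact two-sided permutation p = 0.1). This share was computed after the values of the genes had been seen, and it restates the ratio of Gas6 to Pros1. The ratio of Gas6 to Pros1 within a library went from 2.10 to 2.81 in the controls to 1.23 to 1.36 in the KO libraries, a difference of -0.92 in the mean log2 ratio. Between receptor and ligand, the ratio of Mertk to Gas6 was 0.951 to 1.08 in the controls and 1.57 to 1.87 in the KO libraries, a difference of 0.78.

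**Figure D2:**
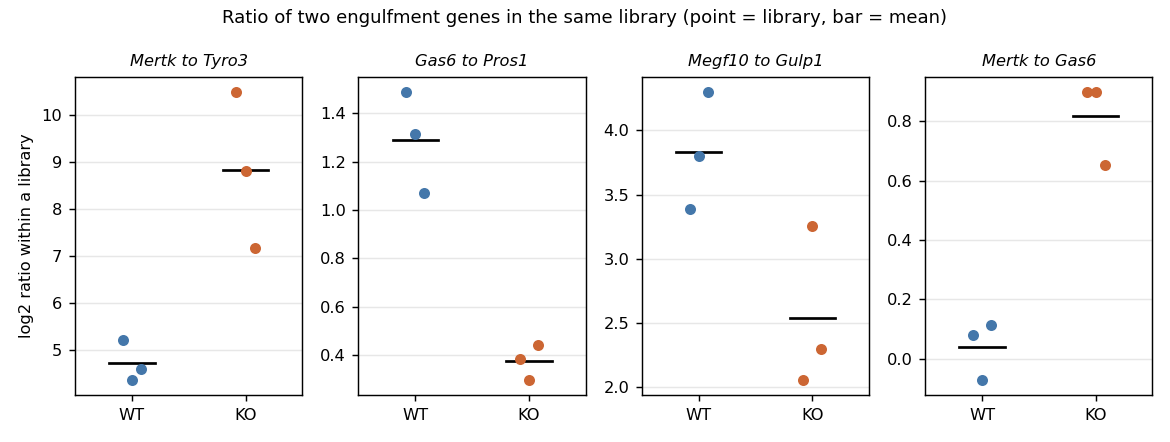
Ratio of one engulfment gene to another within each library, from normalized counts without correction for length, on a log2 axis, with a point for each control (WT) and Sox9 KO library and the group means as bars. The groups did not overlap for any of the 4 pairs, and the mean log2 ratio of Mertk to Tyro3 went from 4.72 to 8.82.

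In all 4 pairs were compared in this way, and for each the exact two-sided permutation p was 0.10, the smallest that 3 against 3 libraries can give, and it was 0.10 after Benjamini-Hochberg adjustment over the 4 pairs. These ratios need no scaling between libraries. The last pair is that of Megf10 and Gulp1.

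Megf10 (chr18:57133090-57297467, plus strand) had the largest fall of the 10 genes over all libraries, although without KO library 3 the log2 change was -3.70 for Megf10 and -3.85 for Tyro3. Its normalized counts were 6149, 5897 and 6951 in the controls against 353, 666 and 712 in the KO libraries. The highest KO library stayed far below the lowest control. The mean fell from 6332.5 ± 550.4 to 577 ± 195 (SD, n = 3 per group), 11.0-fold, with a log2 change of -3.52 ± 0.22 (SE, adjusted p = 3.82e-07) and an interval of -4.01 to -3.02. Gulp1 (chr1:44551511-44796838, plus strand), an adaptor with a phosphotyrosine-binding domain, fell beside it from 587, 423 and 351 in the controls to 84.4, 68.7 and 144 in the KO libraries. These groups did not overlap either. For Gulp1 the mean went from 454 ± 121 to 99.1 ± 39.9 (SD, n = 3 per group), a log2 change of -2.22 ± 0.29 (SE, adjusted p = 7.57e-05). Megf10 was 10.5 to 19.8 times as high as Gulp1 in the controls and 4.19 to 9.70 times in the KO libraries, so that the fall of Megf10 was the larger by 1.29 on the log2 scale.

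The scavenger and endocytic receptors showed smaller and less even changes. Msr1 (chr8:39581685-39642673, minus strand), the class A scavenger receptor of macrophages, was at 956, 1576 and 1182 in the controls and at 2119.5, 1715 and 3544 in the KO libraries. The groups did not overlap, but control 2 and KO library 2 lay close together and KO library 3 was well above the other two. The mean rose from 1238 ± 314 to 2459.6 ± 961 (SD, n = 3 per group), a log2 change of 0.95 ± 0.25 (SE, adjusted p = 0.00744) with an interval of 0.39 to 1.51. This call was narrowly lost without control 1, where the change was 0.78 (adjusted p = 0.0505), and without control 3, where it was 0.93 (adjusted p = 0.0529). It was also lost without the trend of variance on expression (adjusted p = 0.0533) and after scaling to equal totals without Rn45s, where the change was 0.62 (adjusted p = 0.0556). The call held without control 2 and without each of the KO libraries.

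Cd36 (chr5:17781690-17888801, minus strand), a scavenger receptor for lipids and apoptotic cells that endothelial cells also carry, was at 1251, 957 and 957 in the controls and at 3135, 1114 and 1168 in the KO libraries. KO library 1 stood far above the other two, which lay between the highest and the lowest control. The control mean was 1055 ± 169.9 and the KO mean 1806 ± 1152 (SD, n = 3 per group), and the log2 difference of 0.61 ± 0.33 (SE) did not pass the test (adjusted p = 0.133). Without KO library 1 it was 0.12. Of 6 endothelial markers, 2 were called higher and 2 lower, and their part in the value of Cd36 was not tested.

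Lrp1 (chr10:127538161-127621148, minus strand), the large endocytic receptor that binds calreticulin and many other ligands, was the most abundant of the 10 genes in normalized counts. Its values were 21853, 20357 and 19644 in the controls against 21860.1, 26321 and 25426 in the KO libraries, so that KO library 1 was almost equal to control 1. The log2 difference of 0.25 ± 0.10 (SE) did not pass the test (adjusted p = 0.0565), with an interval of 0.02 to 0.47, and it turned to -0.079 after scaling to equal totals without Rn45s and to -0.42 after quantile normalization. Timd4 (chr11:46810800-46844332, plus strand), a receptor for phosphatidylserine on tissue macrophages, was at 227, 153 and 97.7 in the controls and at 197, 73.0 and 137 in the KO libraries. The groups overlapped throughout. The log2 difference of -0.26 ± 0.39 (SE, adjusted p = 0.583) had an interval of -1.13 to 0.61, which holds changes of 1.5-fold in both directions, and its direction turned to 0.41 after quantile normalization and also when control 1 or KO library 2 was left out.

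**Figure D3:**
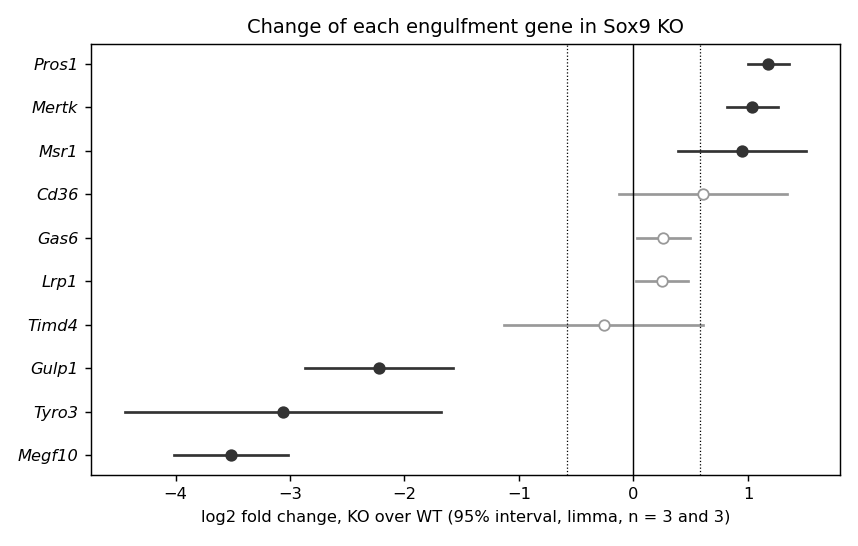
Log2 change from control to Sox9 KO for each of the 10 engulfment genes, as points with the 95% confidence interval from limma, filled where the gene was called, with dotted lines at a 1.5-fold change. Megf10, Tyro3 and Gulp1 lie to the left of 0, Mertk, Pros1 and Msr1 to the right, and the small changes of Gas6 (0.26) and Lrp1 (0.25) changed direction after quantile normalization and after scaling to equal totals without Rn45s, as did that of Timd4 (-0.26) after quantile normalization.

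Per kilobase of exon, which allows genes to be compared, the order of levels changed. In the controls Gas6 was highest, with a mean of 4062 normalized counts per kilobase, followed by Mertk at 2454, Lrp1 at 1164, Pros1 at 1031, Megf10 at 820, Cd36 at 294, Msr1 at 195, Gulp1 at 121, Timd4 at 73.3 and Tyro3 at 65.6. The libraries of neighbours in this order did not overlap except from Msr1 down to Tyro3, where Msr1 overlapped Gulp1, Gulp1 overlapped Timd4 and Timd4 overlapped Tyro3. In the KO libraries Mertk, at 5027, and Gas6, at 4856, stood at the top and overlapped. Pros1 came next at 2332, above Lrp1 at 1385. Cd36 at 503 and Msr1 at 388 overlapped, as did Megf10 at 74.8, Timd4 at 62.3, Gulp1 at 26.4 and Tyro3 at 11.0, each with its neighbour. Megf10 thus went from the fifth place to the seventh. With the length of the longest transcript in place of all exons, a choice made after seeing the data, Cd36 and Msr1 changed places in both groups, as did Timd4 and Tyro3 in the controls.

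Because markers of microglia and of astrocytes moved with the groups, each gene was also read against both lists in the same library. The geometric mean of the microglia markers rose by 1.70 and that of the astrocyte markers fell by 3.88 on the log2 scale. Relative to the microglia markers, 9 of the 10 genes were lower in the KO libraries with no overlap between the groups, against 84.5% of all genes tested that did not overlap in either direction. The median difference over all genes tested was -1.77. Among the 10 genes, the smallest differences were those of Pros1 at -0.52 and Mertk at -0.66. Msr1, at -0.75, was the gene whose groups overlapped. The others stood at -1.09 for Cd36, -1.44 for Gas6, -1.45 for Lrp1, -1.96 for Timd4, -3.92 for Gulp1, -4.76 for Tyro3 and -5.22 for Megf10. Mertk and Pros1 therefore rose by less than the microglia markers did on average.

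Relative to the astrocyte markers, Megf10 differed by 0.37 (exact two-sided permutation p = 0.4) and Tyro3 by 0.82 (exact two-sided permutation p = 0.5), and the groups overlapped for both. Megf10 therefore fell by nearly as much as the astrocyte markers did. The other 8 genes were higher with no overlap, against 93.0% of all genes tested that did not overlap in either direction. Gulp1 was the nearest to the astrocyte markers at 1.66, and the remaining values were 3.62 for Timd4, 4.13 for Lrp1, 4.14 for Gas6, 4.49 for Cd36, 4.83 for Msr1, 4.92 for Mertk and 5.06 for Pros1. The median difference over all genes tested was 3.82, so most genes were higher relative to this list. With 3 against 3 libraries the smallest two-sided p that an exact permutation test can give is 0.1. Whether the changes of these genes come from astrocytes, from microglia or from the proportions of both was not tested. Markers of border macrophages did not move together, with 2 of 7 higher and 4 lower. Their summed level was 15308 to 23000 in the controls and 22393 to 26091 in the KO libraries. Most of this sum was Mrc1, with means of 11774 and 18847, so the sum does not show the 4 markers that fell. Of the 5 monocyte markers 2 were higher, and the sums were 487 to 1178 and 1468 to 1870.

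**Figure D4:**
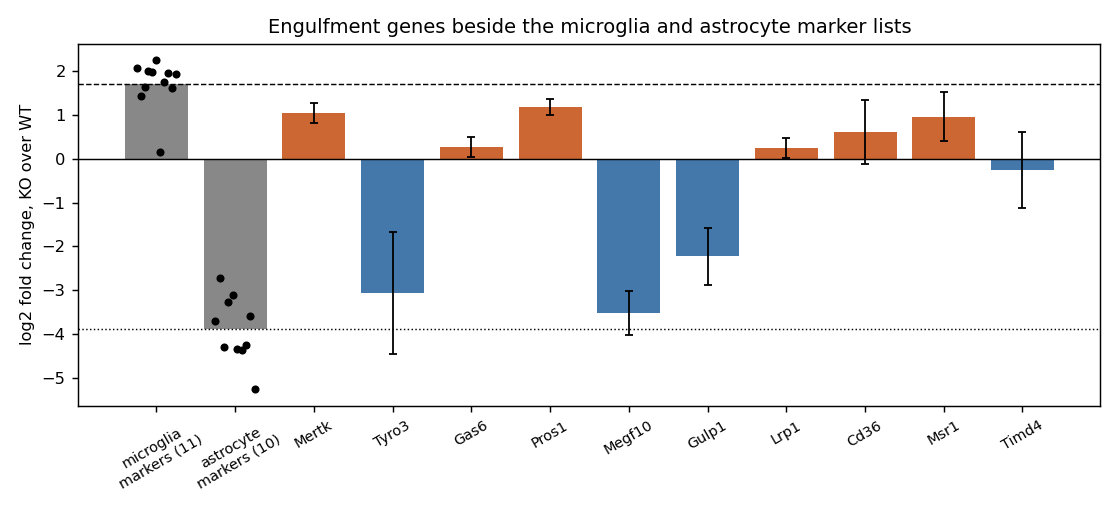
Log2 change from control to Sox9 KO for the 10 engulfment genes (bars, with 95% intervals from limma) beside the microglia and astrocyte markers (grey bars, the mean log2 change of each list, with a black dot for each marker gene). The dashed line is the mean change of the microglia markers and the dotted line that of the astrocyte markers. Megf10 (-3.52) lies near the astrocyte line, and Mertk (1.04) and Pros1 (1.18) lie between 0 and the microglia line. The small changes of Gas6, Lrp1 and Timd4 changed direction after quantile normalization.

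The wider pathway gave the surroundings of the 10 genes. Of 64 other engulfment genes 63 were tested, of which 38 were called higher in the KO libraries, 6 were called lower and 19 were not called, with a median log2 change of 0.94 against -0.066 over all genes tested. Of all genes tested 22.2% were called higher, but these lists were chosen with earlier results of these data known. The shares are therefore given as a description only. The microglia markers rose by 1.70 in mean log2 change, and their part in these changes was not tested. Among the 20 other receptors 14 were higher and 1 was lower. By the mean over all 6 libraries, the highest of them in normalized counts besides Axl were Cd68, a lysosomal glycoprotein of phagocytes, with a log2 change of 1.79, and Mrc1, the mannose receptor, with 0.70. The receptor called lower was Adgrb1 (BAI1), which binds phosphatidylserine and signals to Rac, and it fell from a mean of 25466, above the other receptors of this list in the controls, to 2177.

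Bridging and opsonizing proteins were called higher in 7 of 9 cases. By the mean over all 6 libraries, the highest in normalized counts were the subunits of complement C1q, with log2 changes of 2.33 for C1qa, 2.17 for C1qb and 2.01 for C1qc. Mfge8, which bridges phosphatidylserine to integrins and is secreted by astrocytes among other cells, fell from 2726 to 108, the largest fall among the 63 genes. The largest rise among them was that of complement C3, from a mean of 781 to 10299, a log2 change of 3.66. Its KO libraries were widely spread, at 14914, 9424 and 6560 in KO libraries 1, 2 and 3. The controls were at 593, 832 and 919. Adgrb1, Mfge8 and the other genes of this pathway that were called lower are named because they were few, a choice made with their values in view. C3 is named as the largest rise, also with its value in view.

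Genes of the internalization machinery divided, with 7 of 15 higher and 3 lower. Rac1, the GTPase that drives the phagocytic cup, had a log2 change of 0.36 and was not called, while Abca1, a lipid exporter, rose by 1.01 and Dock2, the Rac activator of blood cells, rose by 1.80. Elmo2 fell from 6065 to 1559, the focal adhesion kinase gene Ptk2 fell from 1791 to 370.3, and Dock1 fell from 3406 to 1946. Paralogs of the Rac activating complex thus moved in opposite directions, with log2 changes of 1.07 for Elmo1 against -1.95 for Elmo2 and of 1.80 for Dock2 against -0.81 for Dock1. These paralogs were set side by side after their values were seen.

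Of the 10 genes of phagosome maturation tested, 4 were called higher and 6 were not called. Those that rose included the lysosomal membrane proteins Lamp1, which rose by 0.88, and Lamp2, which rose by 0.80, while the late endosomal GTPase Rab7 had a log2 difference of 0.19 and was not called. Cybb, the catalytic subunit of the phagocyte NADPH oxidase, named with its value in view, had the largest change of this list, from 2995 to 22638, a log2 change of 2.92. Of 5 genes that expose or flip phosphatidylserine, the scramblase Ano6 rose by 1.14 on the log2 scale, the flippase Atp11a fell from 3153 to 1940.4, and the flippase subunit Tmem30a, with 0.13, was not called. All 4 genes of inhibitory signals and receptor shedding rose. They included Sirpa, the inhibitory receptor of phagocytes, from 18553 to 54111, and its ligand Cd47, from 4015 to 8981. Adam17, the protease that sheds Mertk, rose by 1.22.

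**Figure D5:**
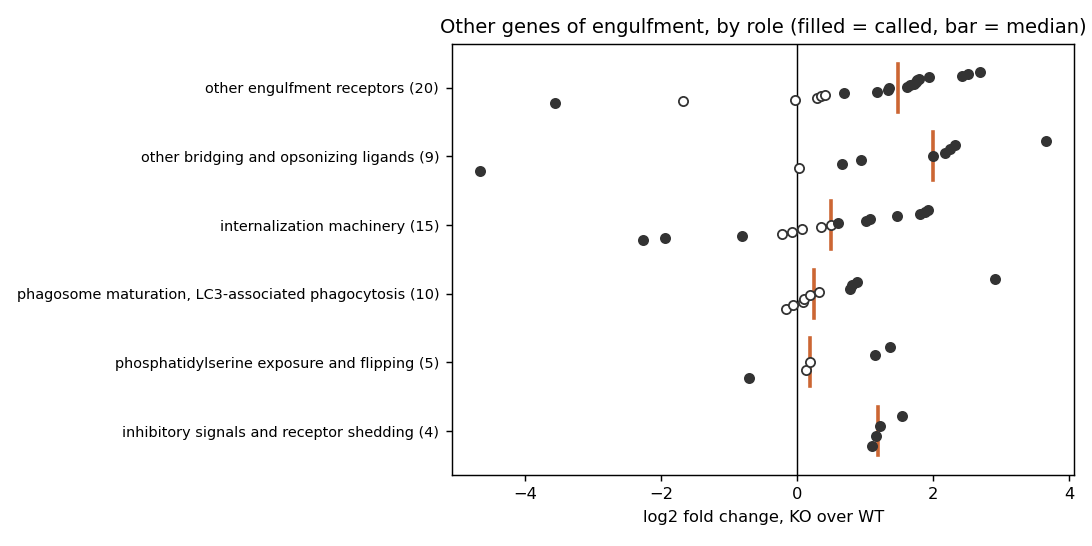
Log2 change from control to Sox9 KO for the other engulfment genes by role, with 1 point per gene filled where it was called, and the median of each list as a bar. The medians were 1.48 for receptors, 2.01 for bridging and opsonizing proteins, 0.50 for internalization, 0.25 for phagosome maturation, 0.18 for phosphatidylserine exposure and 1.19 for inhibitory signals and shedding, all above the median of all genes tested (-0.066).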

How the data were processed

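Gene expression was measured by RNA-seq (Trio RNA-Seq System) in TurboRFP-positive cells of 3 control and 3 Sox9 KO mice. The authors mapped reads with STAR 2.5.0a to mm10, after FastQC and MultiQC, counted them per gene, and normalized the counts with DESeq2 1.20.0. Neither the annotation nor the strand setting is given in the sources used here. The signal values that the authors deposited, 1 per gene and library, are named RPM, but each library's values are whole multiples of 1 step, that of a read scaled by a size factor, and they are called normalized counts here.

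Groups came from the WT and KO labels in the sample titles. Genes with a mean of at least 1 were compared on log2(normalized count + 1) with limma 3.58.1 in R 4.3.3, with the variance modelled as a trend on mean expression, and Benjamini-Hochberg adjusted two-sided p-values. Log2 changes are KO minus control on that scale, which understates changes of low genes, and fitted values can differ slightly from ratios of means. A gene was called at an adjusted p under 0.05 and a change of 1.5-fold. Calls on recovered reads used edgeR 4.0.16 and DESeq2 1.42.0. Other alternatives changed the scaling, the pseudocount, the filter and the libraries used. Single quantities were compared by exact permutation tests over libraries. Libraries of a group differed beyond sampling noise, with a chi-square per degree of freedom of 19.4 to 67.4, and each counted as 1 replicate. Coordinates of genes and exon lengths are from GENCODE M21 on GRCm38 (the primary sequence of mm10), and promoters are from RefSeq.

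The genes named are the 10 engulfment genes, Sox9, Axl, and the 3 genes with the highest mean in each list of engulfment genes and, for astrocytes and microglia, of markers; exceptions are stated, and 1 gene that this rule names is not reported here. The 10 genes and all lists were chosen with earlier results of these data known. Of the markers of other cell types, 5 of 5 oligodendrocyte, 4 of 4 oligodendrocyte precursor, 2 of 6 endothelial, 4 of 5 mural and 4 of 5 olfactory ensheathing markers were called lower, 2 endothelial markers were called higher, and the 4 fibroblast markers were not called.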

Additional observations from a re-analysis of the deposited data

How the results depend on the processing

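Megf10, Tyro3, Gulp1 and Pros1 kept their direction and their call under all 19 alternatives, with log2 changes from -3.84 to -3.20, -3.85 to -2.26, -2.55 to -1.69 and 0.77 to 1.24. For Mertk, whose values ran from 0.43 to 1.13, the call was lost after quantile normalization. For Msr1 it was lost under the 4 alternatives named with its values. The direction of Gas6 turned after scaling to equal totals without Rn45s (-0.066, adjusted p = 0.600 by limma) and after quantile normalization (-0.25, adjusted p = 0.0494), and that of Lrp1 under the same alternatives (-0.079 and -0.42, the latter with an adjusted p of 0.00543). Timd4 turned after quantile normalization (0.41), without control 1 (0.032) and without KO library 2 (0.12), and ran from -0.58 to 0.12 with 1 library left out. The cause was not tested, beyond the shift of the median over all genes tested by -0.23 with equal totals, by -0.31 with equal totals without Rn45s and by 0.27 with quantile normalization. The count of genes called higher was 2630 with equal totals without Rn45s and 2514 at a threshold of 2-fold, and between 3819 and 4035 with 1 library left out, where 4929 to 5129 genes were called lower. Leaving out 1 library left 2 to 3 of the 10 genes called higher and 3 called lower, and 37 to 38 of the other engulfment genes higher. Both edgeR and DESeq2 called 3 of the 10 genes higher and 3 lower. Libraries with the same replicate number did not deviate together (correlations of -0.051, -0.013 and -0.013), so the number was not taken to pair them. With the replicate number as a block, 4048 genes were called higher and 5227 lower, and Cd36 was called as well (log2 change 0.61, adjusted p = 0.0288), which made 4 of the 10 genes higher and 3 lower. The log2 ratios within a library kept their direction, from 3.26 to 4.93 for Mertk to Tyro3, -1.03 to -0.82 for Gas6 to Pros1, -1.65 to -1.05 for Megf10 to Gulp1 and 0.72 to 0.86 for Mertk to Gas6. The genes with the fewest reads had 15 to 121 for Tyro3, 85 to 174 for Gulp1 and 90 to 198 for Timd4 in the KO libraries.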
